A study of Mus musculus with 12 samples.

Results

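The 33 genes described here run the synthesis and handling of cholesterol and fatty acids: 6 enzymes of the mevalonate steps, 11 enzymes that turn squalene precursors into cholesterol, 5 genes of the SREBP control system, 5 genes of fatty acid synthesis and desaturation, and 6 genes of the liver X receptor (LXR) branch and of sterol transport. They were listed by name as pathway genes, with earlier results of these data known, from the 24346 gene symbols of the deposited tables. All 33 were among the 10797 genes that passed the filter on low values. The RNA came from wild-type and Trpm5-/- mouse marginal zone B cells, which line the splenic white pulp and answer blood-borne microbes quickly. TRPM5 is a calcium-activated cation channel. Each genotype was kept for 4 h without a stimulus, with 10 µg/mL lipopolysaccharide (LPS, a ligand of Toll-like receptor 4) or with 10 µg/mL of an antibody against IgM (anti-IgM, which crosslinks the B cell receptor), giving 6 groups of 2 libraries and 12 libraries altogether. The labels used here do not state the strain, age or sex of the mice, the deleted part of Trpm5, or whether replicate libraries stem from different mice or cultures. The p-values therefore rest on library-to-library spread, possibly technical.

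Cells make cholesterol from acetyl-CoA through mevalonate, isoprenoids, squalene and lanosterol. When sterols in the endoplasmic reticulum run low, SCAP escorts the membrane-bound SREBP transcription factors out of the reticulum, they are cleaved, and they switch on the enzymes of the pathway; INSIG proteins hold SCAP back when sterols are plentiful. When oxysterols or sterol intermediates build up, LXR switches on export genes such as Abca1 and Abcg1 and the ubiquitin ligase Mylip (IDOL), which limits lipoprotein uptake. B cells that start to grow after activation need new membrane, and lipid synthesis is known to rise in activated lymphocytes.

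Values are FPKM, fragments scaled to transcript length and library size, so levels can be set against each other between genes. Differences are on the log2(FPKM + 1) scale with the model's standard error (SE), which understates changes of low genes, and folds are on the same scale. A gene was called when the Benjamini-Hochberg adjusted p from limma was under 0.05. Library sums of FPKM lay between 563461 and 805373. Depth relative to wild-type unstimulated replicate 1 was 0.646 to 1.06, and replicates correlated across genes with r of 0.9589 to 0.9778. Trpm5 itself was too low to check the labels in every group: it stood at 0.01957 and 0.2095 FPKM in wild-type and 0.02364 and 0.01845 in Trpm5-/- unstimulated libraries, at 0.4337 and 0.3212 against 0 and 0.03033 with LPS, and at 0.05899 and 0.0241 against 0 and 0 with anti-IgM. The genotypes overlapped in unstimulated libraries and did not with either stimulus, all at very low levels. All 12 marginal zone B cell markers and all 9 pan-B markers listed passed the filter. T cell markers summed to 14.9 to 72.1 FPKM over the libraries, of which Lck alone gave 13.5 to 66.2. Cd3d, Cd3e, Cd3g and Cd4 did not exceed 0.702 FPKM. NK cell markers summed to 0.315 to 4.09, neutrophil markers to 0 to 2.88 and platelet markers to 0.0378 to 2.37. Dendritic markers summed to 7.63 to 76.7, mostly Zbtb46 (5.27 to 70.2). Stromal and endothelial markers summed to 3.79 to 48.5, mostly Pecam1 (3.6 to 48.2). The pan-B markers summed to 8567 to 17316, of which Cd74 gave 6646 to 11762.

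The promoters show what the rule for these genes did not use. RefSeq windows of 300 bases (250 before and 50 after the start, GRCm38.p6, the assembly called mm10) were found for 26 of the 33 genes. The stretches below, none of which overlaps an annotated exon, come from 4 genes whose RNA was called higher in unstimulated Trpm5-/- cells (Hmgcs1, Cyp51, Sc5d, Fasn) and from 2 LXR targets whose RNA was lower in Trpm5-/- cells averaged over the 3 conditions (Abca1, Mylip). Capitals mark the core of the sterol response element bound by SREBP, TCACNNCA, and the CCAAT box bound by NF-Y, on either strand (ATTGG is CCAAT read on the other strand). The stretches lie at chr13:119690201-119690350 (plus strand) for Hmgcs1, chr5:4104747-4104896 (minus strand) for Cyp51, chr9:42264301-42264450 (minus strand) for Sc5d, chr11:120824548-120824697 (minus strand) for Fasn, chr4:53159896-53160045 (minus strand) for Abca1 and chr13:45389592-45389741 (plus strand) for Mylip.
Hmgcs1: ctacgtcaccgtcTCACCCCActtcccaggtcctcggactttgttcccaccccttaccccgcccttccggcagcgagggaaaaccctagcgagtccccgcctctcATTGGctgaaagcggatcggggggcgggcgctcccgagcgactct
Cyp51: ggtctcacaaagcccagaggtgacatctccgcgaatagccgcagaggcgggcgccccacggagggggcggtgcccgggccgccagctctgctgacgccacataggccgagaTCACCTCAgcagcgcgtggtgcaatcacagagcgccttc
Sc5d: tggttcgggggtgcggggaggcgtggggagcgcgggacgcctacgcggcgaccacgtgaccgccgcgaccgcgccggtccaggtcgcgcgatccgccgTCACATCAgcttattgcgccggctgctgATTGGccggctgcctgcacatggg
Fasn: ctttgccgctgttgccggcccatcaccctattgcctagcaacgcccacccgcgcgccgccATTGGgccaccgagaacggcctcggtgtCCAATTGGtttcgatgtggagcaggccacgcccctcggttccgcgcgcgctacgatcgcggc
Abca1: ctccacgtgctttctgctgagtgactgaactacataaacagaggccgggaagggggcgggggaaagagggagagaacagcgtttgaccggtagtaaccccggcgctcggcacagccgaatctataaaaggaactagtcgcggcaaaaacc
Mylip: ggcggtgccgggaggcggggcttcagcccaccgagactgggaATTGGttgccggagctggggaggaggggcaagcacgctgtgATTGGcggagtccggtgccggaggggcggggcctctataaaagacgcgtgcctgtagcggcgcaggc

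The core TCACNNCA stood in 10 of the 26 gene windows (38.5%), against 15.7% of all 27025 genes with a window, and in 8 of the 14 windows of sterol enzymes. It did not follow the genotype calls of unstimulated cells. Pmvk, Nsdhl, Hsd17b7 and Dhcr7 had the core and were not called. Mvd, Idi1, Lss, Insig1, Fasn and Acly were called higher in Trpm5-/- cells and had a window without it. CCAAT stood in 22 of 26 (84.6%), against 41.1% of all genes, in 14 of 14 sterol enzymes and in 2 of the 4 windows of the LXR and transport genes. The longer element TCACNCCAC was in Hmgcs1 alone, from base -137 to base -129 counted from the start, against 1.44% of all genes. The CCAAT of Cyp51 lies outside the stretch shown, and the stretch of Abca1 holds neither motif. The Sp1 box GGGCGG was as frequent as CCAAT (22 of 26, against 38.2%), and the E-box CACGTG stood in 6 of 26 (23.1%, against 8.09%). The exact consensus of the LXR element (the direct repeat of AGGTCA with 4 bases between, DR4) was in none of the 26, against 0.0148% of all genes. Imperfect repeats were not searched for, so this does not show whether a window, that of Abca1 included, holds an LXR element. All motifs were searched on both strands, the base composition of the windows was not matched, and a match is a description of letters.

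In unstimulated cells 10 of the 17 sterol enzymes had more RNA when Trpm5 was deleted, and 4 of the 6 LXR and transport genes had less. Cyp51, the lanosterol demethylase, stood at 32.8 and 34.2 FPKM in wild-type and 59.6 and 60.2 in Trpm5-/- libraries, a log2 difference of 0.82 ± 0.05 (1.77-fold, limma, adjusted p = 3.17e-05). Gramd1a, a carrier that moves cholesterol from the plasma membrane to the endoplasmic reticulum, stood at 106 and 115 against 44.9 and 48.3, a difference of -1.23 ± 0.10 (2.34-fold lower, limma, adjusted p = 0.000218). Of the 33 genes 14 were called higher and 5 lower, where 4.45% of all genes tested were called higher and 1.66% lower. Their median log2 difference was 0.25, against 0.02 over all genes tested. Of the 17 sterol enzymes 10 were higher and 0 lower (median 0.46), of the 5 SREBP control genes 1 was higher (Insig1), of the 5 fatty acid genes 3 were higher (Fasn, Scd2, Acly) and 1 lower (Scd1), and of the 6 LXR and transport genes 4 were lower (Gramd1a, Stard4, Abcg1, Mylip). In bulk RNA, fewer cells of a type and less RNA per cell cannot be told apart.

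With either stimulus, fewer of the 33 genes passed the test between genotypes, mostly in the same directions. Under LPS 5 were called higher (Hmgcs1, Sqle, Cyp51, Insig1, Scd2) and 3 lower (Stard4, Abca1, Mylip) in Trpm5-/- cells, where 1.82% of all genes were called higher and 1.78% lower. After quantile normalization the split under LPS was 2 higher and 3 lower, where 2.82% of all genes were called in either direction. Under anti-IgM 6 were higher, all of them sterol enzymes (Hmgcs1, Idi1, Fdft1, Sqle, Cyp51, Msmo1), and 2 lower (Abca1, Gramd1a), where 1.91% and 1.92% of all genes were. The median over the 33 genes was 0.16 under LPS (0.02 over all genes) and 0.15 under anti-IgM (-0.00 over all genes). Of the 33 genes Cyp51, Hmgcs1 and Sqle were called higher in all 3 conditions, 0 were called lower in all 3, and 13 were called in none. The matching shares of all genes tested were not computed. For the genotype difference averaged over the 3 conditions, 15 were higher and 5 lower, where 10.2% and 5.88% of all genes were, with a median of 0.19 against 0.01. These 5 were all of the LXR and transport genes but Nr1h2.

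The separation of the libraries was wider than the calls. The Trpm5-/- libraries lay above both wild-type libraries for 13 of the 17 sterol enzymes unstimulated, for 12 with LPS and for 15 with anti-IgM, where 28.1%, 26.5% and 25.8% of all genes tested did so. For the 6 LXR and transport genes they lay below for 6, 5 and 6, where 21.4%, 19.3% and 25.8% of all genes did. In all, 10 sterol enzymes had no overlap in any of the 3 conditions: Hmgcs1, Mvd, Idi1, Fdps, Fdft1, Sqle, Lss, Cyp51, Msmo1 and Sc5d. The share of all genes without overlap in all 3 conditions was not computed, so this count has no background to be read against.

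In each condition fewer genotype calls remained when a library of the groups compared was left out, among the 33 genes and over all genes tested alike. Such a fit leaves that group 1 library. Of the 19 unstimulated calls 3 held under all 20 alternatives (Hmgcs1, Cyp51, Gramd1a), of the 8 under LPS 0, and of the 8 under anti-IgM 1 (Cyp51), whereas 17 of the 20 for the mean of the 3 conditions held under all alternatives run for it. Without wild-type unstimulated replicate 1 or 2 the unstimulated count fell from 19 to 10 or 8, and without Trpm5-/- unstimulated replicate 1 or 2 to 6 or 7. The LPS count of 8 fell to 3 without wild-type LPS replicate 1, wild-type LPS replicate 2 or Trpm5-/- LPS replicate 1, and to 5 without Trpm5-/- LPS replicate 2 or without either Trpm5-/- anti-IgM library. The anti-IgM count of 8 fell to 3 without wild-type anti-IgM replicate 2 and to 4 without Trpm5-/- anti-IgM replicate 1.

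Other gene lists moved with genotype, and their part in these results was not tested. Of all genes tested 4.45% were called higher and 1.66% lower in Trpm5-/- cells unstimulated. With LPS these shares were 1.82% and 1.78%, with anti-IgM 1.91% and 1.92%, and for the mean of the 3 conditions 10.2% and 5.88%. Of 12 marginal zone B cell markers 4 were called higher in unstimulated Trpm5-/- cells and 0 lower, and their FPKM summed to 1163 to 1189 in wild-type and 1478 to 1494 in Trpm5-/- libraries (588 to 610 against 815 to 855 with LPS, 836 to 844 against 1045 to 1077 with anti-IgM). The 4 were Cd9, Cd36, Mzb1 and Plxnd1. The list did not move as a whole. In FPKM, the largest unstimulated shifts were in the means of Cd9 (276 in wild-type, 471 in Trpm5-/- cells) and Mzb1 (508 and 608). S1pr1 (185 and 169), Asb2 (3.35 and 2.44), Notch2 and Cd1d1 had lower means in Trpm5-/- cells. With LPS Cd9 again shifted most in FPKM (246 and 439), while Cr2 (86.9 and 72.7), Mzb1 (145 and 138) and Notch2 had lower means. On the log2(FPKM + 1) scale Plxnd1 shifted most of the list, from a low level. Its means were 0.405 in wild-type and 1.81 in Trpm5-/- cells unstimulated, and 3.25 and 15.5 with LPS. Of 9 pan-B markers 7 were lower for the mean of the 3 conditions. Their FPKM summed to 17083 to 17316 in wild-type and 14389 to 14543 in Trpm5-/- libraries unstimulated. The sums were 12299 to 12867 against 9537 to 9908 with LPS and 11674 to 11721 against 8567 to 8975 with anti-IgM. Of 4 follicular B cell markers 2 were lower in each condition, Fcer2a among them. Erythroid markers (7 of 7 listed tested, none at 0) summed to 684 to 710 FPKM in wild-type and 472 to 510 in Trpm5-/- unstimulated libraries, to 454 to 538 against 276 to 277 with LPS and to 379 to 521 against 249 to 307 with anti-IgM. Of these 7, 0 were called unstimulated, 2 lower under LPS and 1 lower under anti-IgM. Macrophage and monocyte markers (6 of 12 tested) summed to 33.2 to 40.8 against 26 to 26.8 unstimulated, 18.8 to 23.5 against 23.5 to 24.8 with LPS, and 18.9 to 21.3 against 23 to 23.6 with anti-IgM, 1 of the 6 being called lower unstimulated (Vcam1) and 1 higher under each stimulus (Lyz2). This list did not move as a whole either. Lyz2 had means of 5.5 in wild-type and 10.9 in Trpm5-/- cells with LPS, and 5.36 and 11.2 with anti-IgM. Cd68, C1qa, C1qb, Csf1r, Vcam1 and Cd14 had lower means in Trpm5-/- cells in all 3 conditions. Adgre1 and Marco had slightly higher means there with either stimulus, and C1qc and Mertk with LPS. Of the macrophage and monocyte markers Lyz2 reached 13.5, Cd68 11.9, Adgre1 6.86, C1qc 2.9 and C1qb 2.68 FPKM in its highest library. C1qa did not exceed 1.59, Csf1r 0.824 and Mertk 0.113 FPKM, and Fcgr1 was listed at 0 in all 12 libraries. The nuclear RNAs Malat1 and Neat1, listed as markers of RNA quality, summed to 389 to 432 against 297 to 305 FPKM unstimulated. The sums were 143 to 168 against 136 to 153 with LPS and 259 to 294 against 204 to 213 with anti-IgM. Neat1 moved with the stimulus, with wild-type means of 79.4 unstimulated, 3.38 with LPS and 68.8 with anti-IgM (59, 4.05 and 51.9 in Trpm5-/- cells). The sums are therefore no measure of RNA quality alone, which was not tested. Both RNAs were called lower in Trpm5-/- cells unstimulated and for the mean of the 3 conditions, and the sums overlapped only with LPS.

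**Figure D1:**
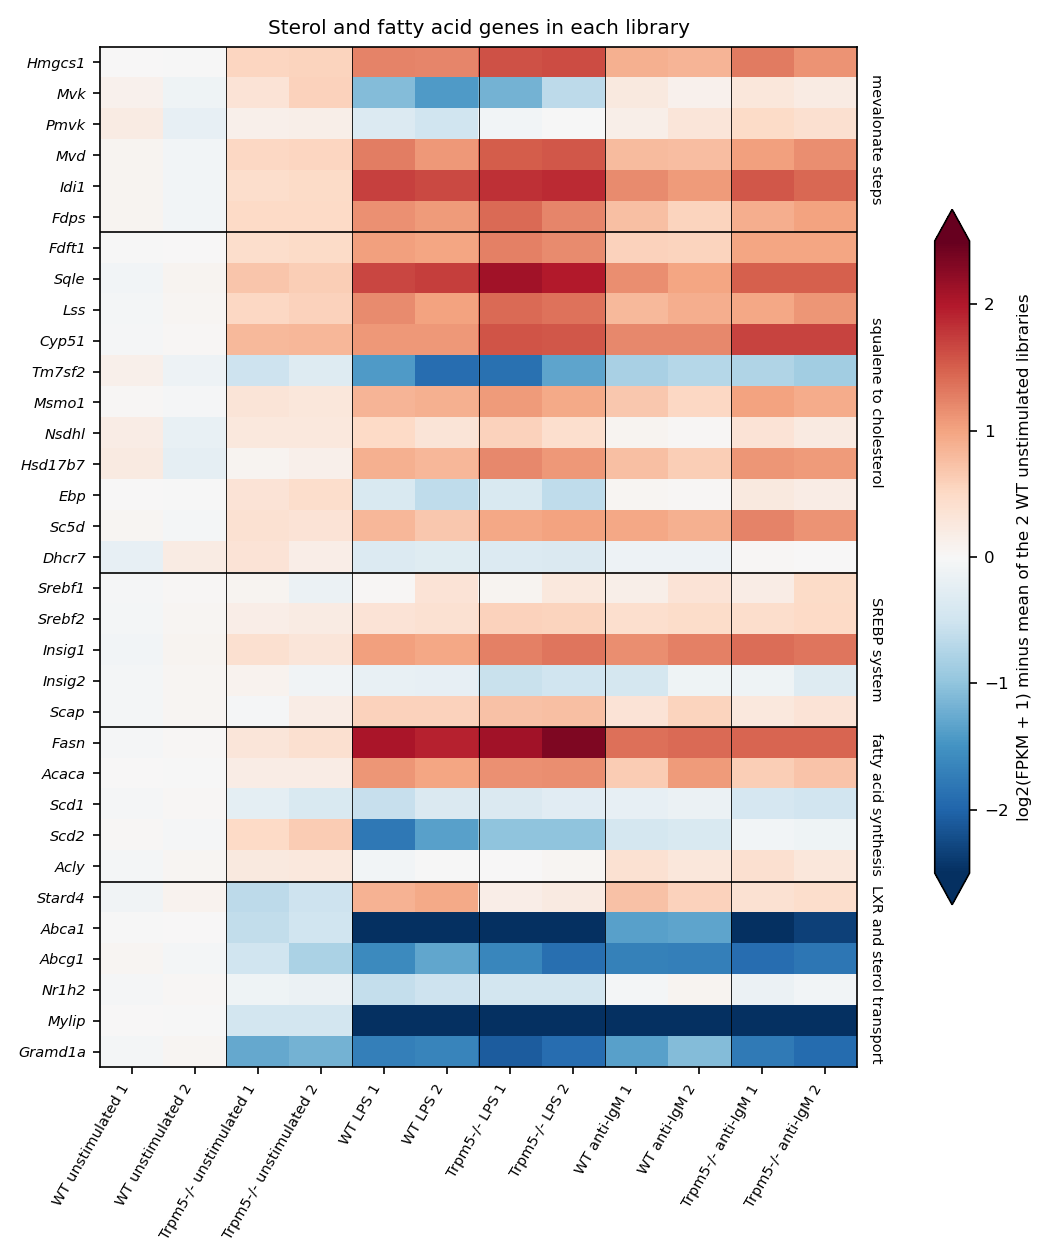
Heat map of the 33 genes (rows, grouped by role) in the 12 libraries (columns). Colour gives log2(FPKM + 1) minus the mean of the 2 wild-type unstimulated libraries, red for higher and blue for lower, and the colour scale ends at 2.5 in either direction. Most sterol enzymes are red in Trpm5-/- unstimulated libraries and darker red with a stimulus, and the LXR targets Abca1, Abcg1 and Mylip and the carrier Gramd1a are blue.

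**Figure D2:**
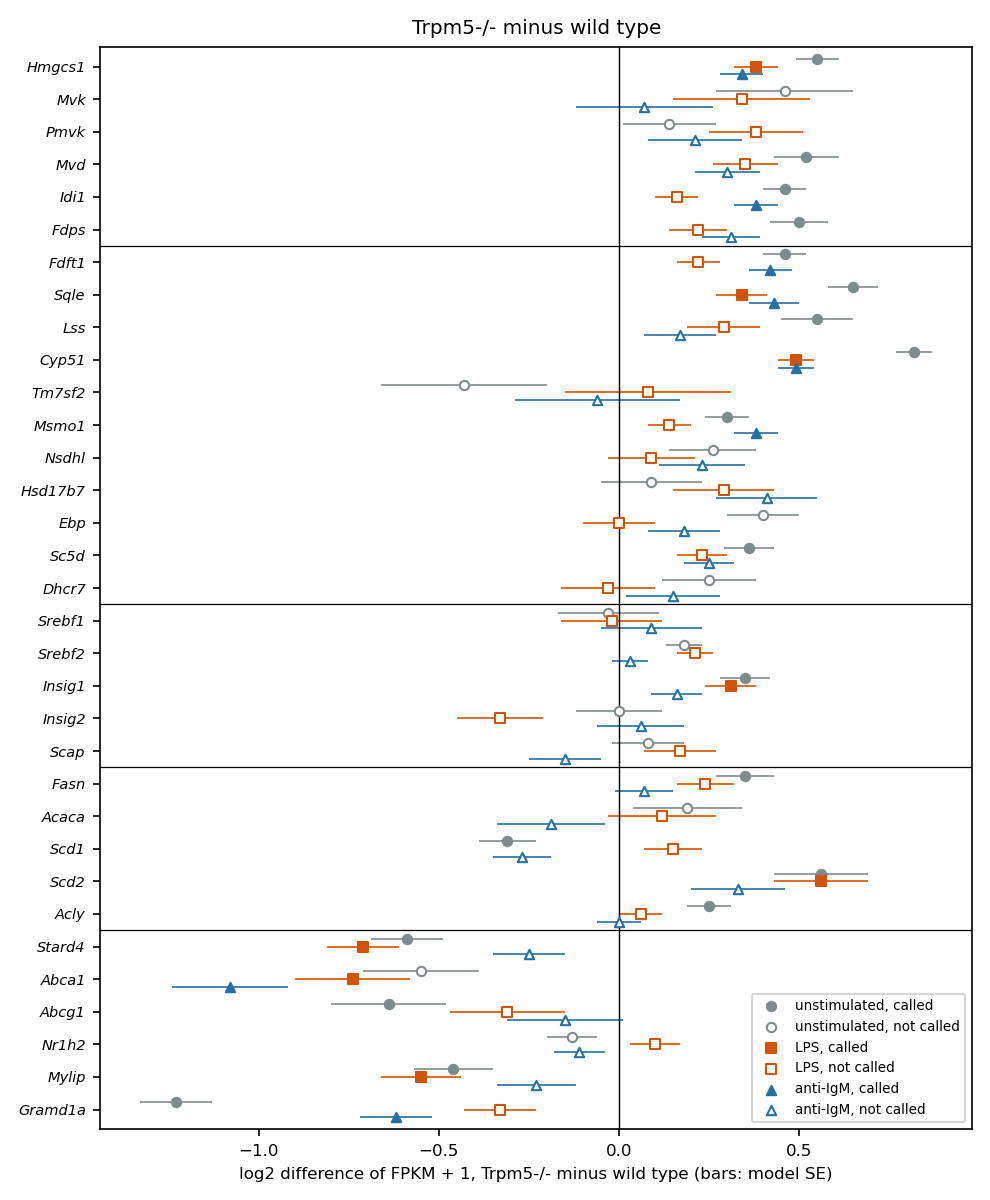
Log2 difference of FPKM + 1, Trpm5-/- minus wild type, for each of the 33 genes in the 3 conditions (symbols, n = 2 libraries a group; bars are the model's SE; filled symbols are called). Unstimulated values run from -1.23 (Gramd1a) to 0.82 (Cyp51).

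Both stimuli raised most sterol enzymes and Fasn and lowered Abca1, Abcg1, Mylip and Gramd1a. With LPS, wild-type cells had 18 of the 33 genes higher and 12 lower than unstimulated ones, where 35% of all genes were called higher and 34.4% lower. Trpm5-/- cells had 17 higher and 12 lower, where 34.8% and 33.8% were. With anti-IgM, 18 were higher and 6 lower in wild-type cells (27.7% and 20.9% of all genes) and 16 higher and 5 lower in Trpm5-/- cells (26.9% and 23%). The median over the 33 genes was 0.41 for LPS and 0.44 for anti-IgM in wild-type cells, against -0.02 and 0.02 over all genes tested. Quantile normalization, which gives all libraries the same spread of values, left the counts of the 33 genes at 17 higher and 11 lower for LPS and 17 and 6 for anti-IgM in wild-type cells. Responses were smaller after it: over the 17 sterol enzymes the median LPS response went from 0.86 to 0.56 in wild-type and from 0.75 to 0.28 in Trpm5-/- cells, and for anti-IgM from 0.65 to 0.52 and from 0.53 to 0.43. Where it moved a value given below by over 1.5 times or ended a call, its value or the loss stands with the gene. So large a share of all genes passed the test that a call alone says little, and the sizes are given by role below. The comparisons of 1 genotype share their unstimulated libraries.

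**Figure D3:**
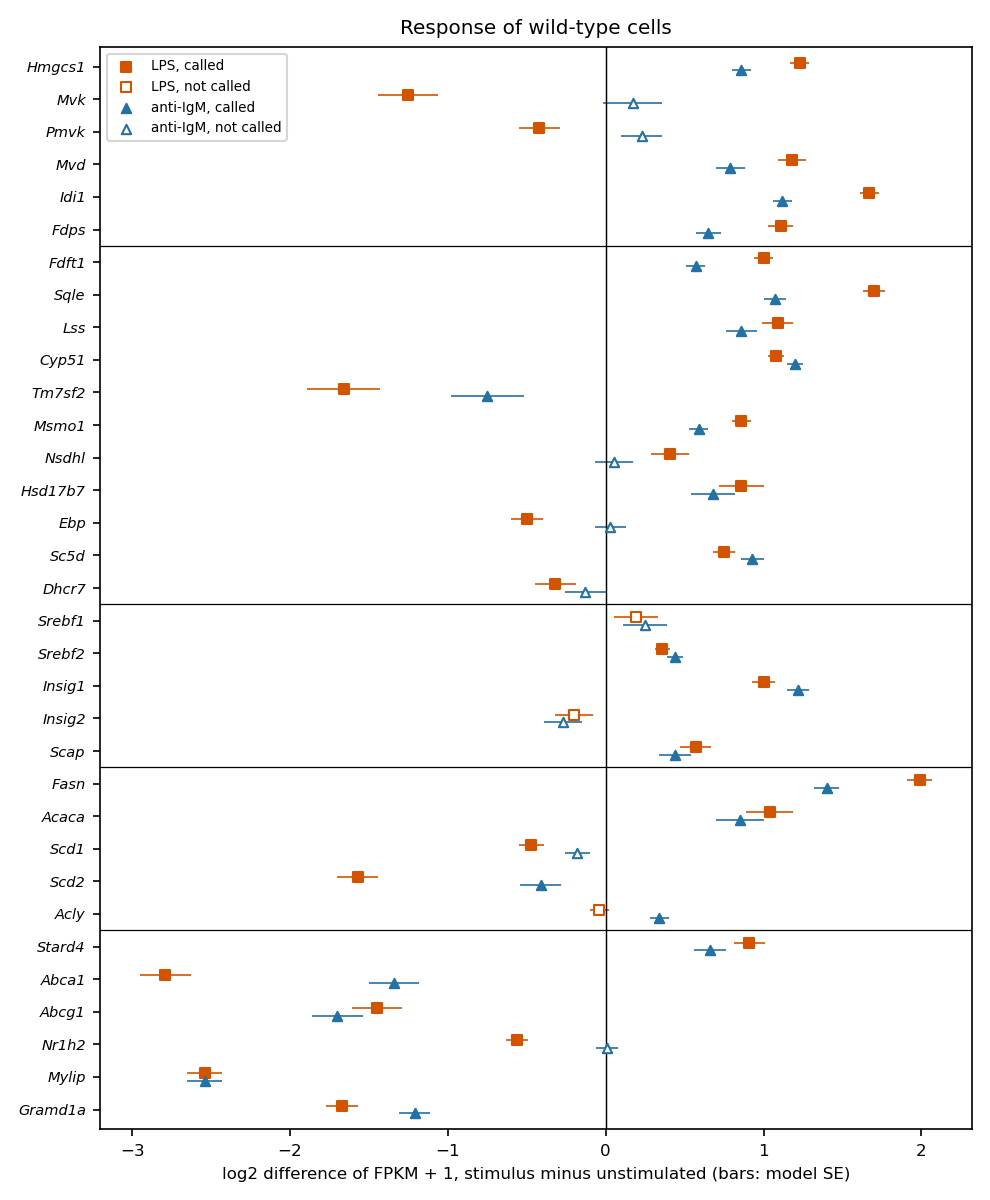
Log2 difference of FPKM + 1, stimulated minus unstimulated wild-type cells, for each of the 33 genes (squares LPS, triangles anti-IgM, n = 2 libraries a group; bars are the model's SE; filled symbols are called). LPS values run from -2.79 (Abca1) to 1.99 (Fasn).

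The mevalonate enzymes make the isoprene units from acetyl-CoA. Hmgcs1, the HMG-CoA synthase that feeds the pathway (chr13:119690379-119708260 in mm10, plus strand), measured 63.7 and 62.5 FPKM unstimulated, 150 and 148 with LPS and 117 and 114 with anti-IgM in wild-type cells, against 92.4 and 93.5, 191 and 198, and 156 and 138 in Trpm5-/- cells. All Trpm5-/- values were above all wild-type values of the same condition, and unstimulated Trpm5-/- cells stayed below every stimulated library. The genotype difference was 0.55 ± 0.06 unstimulated, 0.38 ± 0.06 with LPS and 0.34 ± 0.06 with anti-IgM (limma, adjusted p = 0.00108, 0.00698 and 0.0112), and LPS raised it by 1.23 ± 0.06 in wild-type cells, or 0.78 after quantile normalization. Mvk, mevalonate kinase, went the other way with LPS: it measured 7.49 and 6.41 FPKM unstimulated, 2.73 and 1.97 with LPS and 8.35 and 7.53 with anti-IgM in wild-type cells, against 9.12 and 10.8, 2.51 and 4.07, and 8.66 and 8.1 in Trpm5-/- cells. LPS lowered it by 1.25 ± 0.19 in wild-type and 1.37 ± 0.19 in Trpm5-/- cells, and neither anti-IgM nor genotype gave a call. Pmvk, phosphomevalonate kinase, measured 16.7 and 12.5 FPKM unstimulated, 11.2 and 9.96 with LPS and 16.1 and 18.1 with anti-IgM in wild-type cells, against 15.9 and 16.2, 13.8 and 14.4, and 20.5 and 19.5 in Trpm5-/- cells. It fell with LPS in wild-type cells (-0.42 ± 0.13), a call lost after quantile normalization (-0.29, limma, adjusted p = 0.0861), while the Trpm5-/- value of -0.17 ± 0.13 did not pass, and only the mean genotype difference did (0.25 ± 0.07, limma, adjusted p = 0.0477, a call that 16 of 19 alternatives lost). Mvd, the decarboxylase that makes isopentenyl diphosphate, measured 14.5 and 13.2 FPKM unstimulated, 35.2 and 30.4 with LPS and 24.8 and 24.4 with anti-IgM in wild-type cells, against 20.1 and 20.5, 41.5 and 42.4, and 29.2 and 32 in Trpm5-/- cells. Its genotype difference passed in unstimulated cells (0.52 ± 0.09) and not with LPS or anti-IgM, although the genotypes did not overlap in any condition. Idi1, the isopentenyl diphosphate isomerase, measured 85.9 and 77.9 FPKM unstimulated, 269 and 258 with LPS and 186 and 173 with anti-IgM in wild-type cells, against 112 and 114, 291 and 299, and 241 and 224 in Trpm5-/- cells. It had the largest LPS response of the 6 (1.67 ± 0.06 in wild-type cells), and its genotype difference passed unstimulated (0.46 ± 0.06) and with anti-IgM (0.38 ± 0.06, or 0.25 and not called after quantile normalization) but not with LPS (0.16 ± 0.06, limma, adjusted p = 0.228). Fdps, farnesyl diphosphate synthase, measured 105 and 95.1 FPKM unstimulated, 222 and 211 with LPS and 168 and 148 with anti-IgM in wild-type cells, against 142 and 141, 270 and 235, and 188 and 202 in Trpm5-/- cells. It rose with both stimuli (1.11 ± 0.08 and 0.65 ± 0.08 in wild-type cells), and the LPS rise was 0.56 after quantile normalization. It was called higher in Trpm5-/- cells unstimulated (0.50 ± 0.08) and for the mean of the 3 conditions (0.34 ± 0.05), and not with LPS or anti-IgM alone.

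Squalene is made, oxidised and closed to the first sterol by 3 enzymes. Fdft1, squalene synthase, measured 23.9 and 24.1 FPKM unstimulated, 49.7 and 48.4 with LPS and 36.2 and 35.9 with anti-IgM in wild-type cells, against 32.9 and 34, 58.8 and 55.7, and 48.7 and 48.6 in Trpm5-/- cells. Sqle, squalene epoxidase and a rate-limiting step (chr15:59315077-59331192 in mm10, plus strand), measured 38.6 and 42.1 FPKM unstimulated, 131 and 135 with LPS and 91.6 and 80.5 with anti-IgM in wild-type cells, against 65.4 and 62.5, 175 and 163, and 116 and 116 in Trpm5-/- cells. Lss, lanosterol synthase, measured 6.27 and 6.79 FPKM unstimulated, 16.1 and 14.1 with LPS and 12.2 and 13.1 with anti-IgM in wild-type cells, against 9.84 and 10.2, 19.2 and 18.2, and 13.7 and 15.1 in Trpm5-/- cells. For each of the 3 the Trpm5-/- libraries lay above the wild-type ones in all conditions. Sqle was called in all 3 (0.65 ± 0.07, 0.34 ± 0.07 and 0.43 ± 0.07, limma, adjusted p = 0.00151, 0.0309 and 0.0108), Fdft1 unstimulated and with anti-IgM (0.46 ± 0.06 and 0.42 ± 0.06), and Lss in unstimulated cells alone among the 3 conditions (0.55 ± 0.10). After quantile normalization Sqle with LPS was 0.29 and not called (limma, adjusted p = 0.0654). LPS raised Sqle 3.24-fold, Lss 2.13-fold and Fdft1 2-fold in wild-type cells, and anti-IgM raised them 2.1-fold, 1.81-fold and 1.48-fold.

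The enzymes that trim lanosterol to cholesterol split into those that rose and those that fell with LPS. Cyp51 (chr5:4081145-4104746 in mm10, minus strand) measured 32.8 and 34.2 FPKM unstimulated, 71.9 and 71.9 with LPS and 78.1 and 78.6 with anti-IgM in wild-type cells, against 59.6 and 60.2, 102 and 99.9, and 110 and 111 in Trpm5-/- cells. Its replicates were close, no library of one genotype reached the other, and the genotype difference was 0.49 ± 0.05 with LPS and 0.49 ± 0.05 with anti-IgM (limma, adjusted p = 0.000652 and 0.000702), smaller than the 0.82 ± 0.05 of unstimulated cells, a change that did not pass as an interaction (limma, adjusted p = 0.168 and 0.246). Msmo1, the methylsterol monooxygenase, measured 115 and 109 FPKM unstimulated, 202 and 208 with LPS and 178 and 160 with anti-IgM in wild-type cells, against 140 and 137, 234 and 218, and 227 and 214 in Trpm5-/- cells. It was called higher in Trpm5-/- cells unstimulated (0.30 ± 0.06) and with anti-IgM (0.38 ± 0.06), and in unstimulated wild-type cells it had the highest mean level of the 33 genes, 112 FPKM. LPS and anti-IgM raised it by 0.86 ± 0.06 and 0.59 ± 0.06 in wild-type cells, or by 0.30 and 0.39 after quantile normalization. Sc5d, the desaturase that makes the cholesterol double bond, measured 43.3 and 40.3 FPKM unstimulated, 75.1 and 67.1 with LPS and 82.6 and 78.1 with anti-IgM in wild-type cells, against 54.6 and 53.4, 82.1 and 84.5, and 99.5 and 92.2 in Trpm5-/- cells. It rose with anti-IgM and with LPS (0.93 ± 0.07 and 0.75 ± 0.07 in wild-type cells, the LPS value being 0.43 after quantile normalization), was lower with LPS than with anti-IgM in Trpm5-/- cells (-0.20 ± 0.07, limma, adjusted p = 0.038, and -0.41 after quantile normalization), and its genotype difference passed unstimulated (0.36 ± 0.07). Hsd17b7, a ketosterol reductase, measured 6.06 and 4.21 FPKM unstimulated, 10.2 and 9.8 with LPS and 9.17 and 8.23 with anti-IgM in wild-type cells, against 5.34 and 5.61, 13 and 11.9, and 12.1 and 11.6 in Trpm5-/- cells. It rose with both stimuli in both genotypes, from 0.68 ± 0.14 to 1.05 ± 0.14, and no genotype test passed. Nsdhl, the sterol dehydrogenase of the same complex, measured 17.2 and 13.1 FPKM unstimulated, 21.7 and 18.9 with LPS and 15.7 and 15.3 with anti-IgM in wild-type cells, against 18.2 and 18.2, 23 and 20.3, and 19.2 and 17.7 in Trpm5-/- cells. Only its LPS rise in wild-type cells (0.41 ± 0.12) passed among the stimulus and genotype tests.

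Besides Mvk and Pmvk, 3 later enzymes were called lower with LPS, and of these 5 the wild-type calls of Pmvk and Dhcr7 depended on the scaling. Ebp, the sterol isomerase, measured 28.7 and 28.1 FPKM unstimulated, 21.5 and 18 with LPS and 29.4 and 28.8 with anti-IgM in wild-type cells, against 36.4 and 39, 21.7 and 17.9, and 33.6 and 32.4 in Trpm5-/- cells. LPS lowered it by 0.50 ± 0.10 in wild-type and 0.90 ± 0.10 in Trpm5-/- cells, and with anti-IgM it did not change by the test. Dhcr7, a reductase of the last steps, measured 10.4 and 14 FPKM unstimulated, 9.3 and 9.58 with LPS and 11 and 10.9 with anti-IgM in wild-type cells, against 15.6 and 13.6, 9.36 and 9.13, and 12.4 and 12.2 in Trpm5-/- cells. It lies 729 kb from Trpm5 on chromosome 7, fell with LPS (-0.32 ± 0.13 in wild-type, -0.60 ± 0.13 in Trpm5-/- cells; -0.14 and not called in wild-type cells after quantile normalization, limma, adjusted p = 0.406), and was not called between genotypes in any condition. Tm7sf2, a sterol reductase, measured 3.86 and 3.1 FPKM unstimulated, 0.665 and 0.192 with LPS and 1.55 and 1.74 with anti-IgM in wild-type cells, against 2.1 and 2.55, 0.232 and 0.797, and 1.65 and 1.43 in Trpm5-/- cells. It was near the bottom of the levels, fell in wild-type cells with LPS (-1.66 ± 0.23) and with anti-IgM (-0.75 ± 0.23, a call lost after quantile normalization), and its genotype difference unstimulated had the opposite sign to the other sterol enzymes without passing (-0.43 ± 0.23, limma, adjusted p = 0.327). Over the 17 sterol enzymes, LPS raised 12 and lowered 5 in wild-type cells (Mvk, Pmvk, Tm7sf2, Ebp, Dhcr7), where 35% and 34.4% of all genes were. After quantile normalization these counts were 12 and 3. In Trpm5-/- cells LPS raised 11 and lowered 4, where 34.8% and 33.8% of all genes were. Anti-IgM raised 11 in either genotype and lowered 1 (Tm7sf2) in wild-type and 0 in Trpm5-/- cells. Of all genes it raised 27.7% in wild-type and 26.9% in Trpm5-/- cells, and lowered 20.9% and 23%. The lowered enzymes were thus no more frequent than lowered genes among all genes tested.

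Among the SREBP control genes, the sterol-sensitive brake Insig1 had the largest responses. Insig1, itself a known SREBP target, measured 35.1 and 39.2 FPKM unstimulated, 76.5 and 73.8 with LPS and 84.8 and 90.4 with anti-IgM in wild-type cells, against 49.3 and 46, 90.7 and 95.7, and 99.8 and 95.7 in Trpm5-/- cells. It was higher in Trpm5-/- cells unstimulated (0.35 ± 0.07) and with LPS (0.31 ± 0.07, limma, adjusted p = 0.0424, which 15 of 20 alternatives lost), and LPS and anti-IgM raised it 2-fold and 2.33-fold in wild-type cells. Srebf2, the factor that drives the sterol enzymes, measured 66.8 and 71.4 FPKM unstimulated, 87.4 and 89.8 with LPS and 93.3 and 94.9 with anti-IgM in wild-type cells, against 77.5 and 79.3, 104 and 102, and 94.3 and 98.5 in Trpm5-/- cells. Its mean genotype difference was 0.14 ± 0.03 (limma, adjusted p = 0.0118, lost after quantile normalization), and anti-IgM raised it by 0.44 ± 0.05 in wild-type cells, or 0.25 after quantile normalization. Its rise with LPS, 0.36 ± 0.05 in wild-type and 0.39 ± 0.05 in Trpm5-/- cells, turned to -0.04 in both after quantile normalization. Srebf1, whose products drive fatty acid genes, measured 13.4 and 14 FPKM unstimulated, 14.1 and 17.6 with LPS and 15.3 and 17.7 with anti-IgM in wild-type cells, against 14.5 and 12.2, 14.5 and 16.6, and 15.7 and 19.5 in Trpm5-/- cells. The genotypes overlapped in every condition and 0 of the 12 comparisons called it, while quantile normalization called its anti-IgM rise in Trpm5-/- cells (0.45, limma, adjusted p = 0.0224). Insig2, the other brake, measured 17.5 and 18.9 FPKM unstimulated, 15.8 and 15.6 with LPS and 13.2 and 16.7 with anti-IgM in wild-type cells, against 19.3 and 17.1, 12 and 12.6, and 16.8 and 14.3 in Trpm5-/- cells. It fell with LPS in Trpm5-/- cells (-0.53 ± 0.12) and was called nowhere else. Scap, the escort of SREBP, measured 19.1 and 20.5 FPKM unstimulated, 29.9 and 30 with LPS and 25.2 and 29.5 with anti-IgM in wild-type cells, against 19.4 and 22.6, 33.7 and 33.9, and 23.9 and 25.2 in Trpm5-/- cells. It rose with LPS in both genotypes (0.57 ± 0.10 and 0.66 ± 0.10) and with anti-IgM in wild-type cells (0.44 ± 0.10), and did not differ between genotypes by the test.

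The fatty acid genes were led by Fasn, the fatty acid synthase, which measured 15.9 and 16.7 FPKM unstimulated, 70.3 and 64.6 with LPS and 43.8 and 45.2 with anti-IgM in wild-type cells, against 20.4 and 21.7, 73.5 and 86.3, and 46.7 and 46.6 in Trpm5-/- cells. It had the largest LPS rise of the 33 genes, 1.99 ± 0.08 or 3.96-fold in wild-type cells, and anti-IgM raised it 2.64-fold. Its genotype difference passed in unstimulated cells (0.35 ± 0.08, limma, adjusted p = 0.0373, a call that 11 of 20 alternatives lost) and not with anti-IgM, where it was 0.07 ± 0.08. Acaca, the acetyl-CoA carboxylase before it, measured 3.36 and 3.34 FPKM unstimulated, 8.36 and 7.56 with LPS and 5.79 and 8.04 with anti-IgM in wild-type cells, against 3.97 and 3.95, 8.64 and 8.77, and 5.62 and 6.15 in Trpm5-/- cells. It rose with both stimuli (1.04 ± 0.15 and 0.85 ± 0.15 in wild-type cells), with no genotype call. Acly, which makes cytosolic acetyl-CoA from citrate, measured 88.7 and 95.9 FPKM unstimulated, 88.2 and 91.3 with LPS and 120 and 113 with anti-IgM in wild-type cells, against 109 and 111, 92.7 and 95, and 122 and 112 in Trpm5-/- cells. Its stimulus responses depended on the scaling. It was called higher with anti-IgM in wild-type cells (0.34 ± 0.06), a call lost after quantile normalization (0.10, limma, adjusted p = 0.193). With LPS it was called lower in Trpm5-/- cells alone (-0.22 ± 0.06, against -0.04 ± 0.06 in wild-type cells), while quantile normalization called it lower in both (-0.70 and -0.49). It was slightly higher in unstimulated Trpm5-/- than wild-type cells (0.25 ± 0.06, limma, adjusted p = 0.0458, a call that 17 of 20 alternatives lost). The desaturases Scd1 and Scd2, which put the double bond into stearate, had genotype differences of opposite sign unstimulated and with anti-IgM, and both lay higher in Trpm5-/- cells with LPS. Scd2 measured 15.8 and 15.2 FPKM unstimulated, 3.78 and 5.44 with LPS and 11.2 and 11.6 with anti-IgM in wild-type cells, against 22.2 and 24.5, 7.19 and 7.17, and 14.8 and 14.3 in Trpm5-/- cells. It was higher in Trpm5-/- cells unstimulated (0.56 ± 0.13) and with LPS (0.56 ± 0.13, limma, adjusted p = 0.0372 and 0.049, calls that 11 and 16 of 20 alternatives lost), and LPS lowered it 2.97-fold in either genotype. Scd1 measured 79.3 and 83.4 FPKM unstimulated, 54.2 and 63 with LPS and 70.4 and 73.3 with anti-IgM in wild-type cells, against 68.7 and 62.4, 63.1 and 66.4, and 60.6 and 58.4 in Trpm5-/- cells. Unstimulated Trpm5-/- libraries lay below the wild-type ones (-0.31 ± 0.08, limma, adjusted p = 0.0495, a call that 15 of 20 alternatives lost), and LPS gave -0.47 ± 0.08 in wild-type cells, a call, and -0.02 ± 0.08 in Trpm5-/- cells, no call (interaction 0.45 ± 0.11, limma, adjusted p = 0.222). After quantile normalization Scd1 was called lower with LPS in both genotypes (-0.85 and -0.36), with anti-IgM in both (-0.40 and -0.32), and in Trpm5-/- cells for the mean of the 3 conditions (-0.20, limma, adjusted p = 0.0121).

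All called genotype differences of the LXR and transport genes were lower values in Trpm5-/- cells. Abca1, the pump that loads cholesterol onto apolipoproteins (chr4:53030787-53159895 in mm10, minus strand), measured 16.2 and 16.4 FPKM unstimulated, 1.39 and 1.61 with LPS and 5.71 and 5.94 with anti-IgM in wild-type cells, against 10.3 and 11.2, 0.303 and 0.718, and 2.04 and 2.43 in Trpm5-/- cells. The Trpm5-/- libraries were lower in every condition; the difference was -0.55 ± 0.16 unstimulated, -0.74 ± 0.16 with LPS and -1.08 ± 0.16 with anti-IgM (limma, adjusted p = 0.0688, 0.0294 and 0.005). After quantile normalization the unstimulated difference was called too (-0.65, limma, adjusted p = 0.035). Levels under LPS were near 1 FPKM, and over the alternatives the LPS difference ran from -1.48 to -0.54, and 6 of 20 lost the call. LPS lowered it by 2.79 ± 0.16 and anti-IgM by 1.34 ± 0.16 in wild-type cells. Abcg1, the partner pump that loads lipoprotein particles, measured 9.64 and 9 FPKM unstimulated, 2.41 and 3.17 with LPS and 2.19 and 2.15 with anti-IgM in wild-type cells, against 6.28 and 5, 2.31 and 1.81, and 1.77 and 1.96 in Trpm5-/- cells. Its genotype difference passed in unstimulated cells (-0.64 ± 0.16, limma, adjusted p = 0.047, a call that 16 of 19 alternatives lost) and for the mean of the 3 conditions (-0.37 ± 0.09, limma, adjusted p = 0.0248), not with LPS or anti-IgM alone, and both stimuli lowered it (-1.45 ± 0.16 and -1.70 ± 0.16 in wild-type cells). Mylip measured 28.5 and 28.3 FPKM unstimulated, 3.96 and 4.13 with LPS and 4.13 and 3.99 with anti-IgM in wild-type cells, against 20.5 and 20.5, 2.3 and 2.6, and 3.25 and 3.4 in Trpm5-/- cells. It fell 5.83-fold with LPS and 5.82-fold with anti-IgM in wild-type cells, and was lower in Trpm5-/- cells unstimulated (-0.46 ± 0.11) and with LPS (-0.55 ± 0.11). Nr1h2, the gene of LXR beta, measured 40.3 and 42.4 FPKM unstimulated, 27.1 and 28.5 with LPS and 39.9 and 43.6 with anti-IgM in wild-type cells, against 38.3 and 37.2, 29.7 and 29.9, and 37.5 and 39.5 in Trpm5-/- cells. It fell with LPS (-0.56 ± 0.07 in wild-type cells), not with anti-IgM, and was not called between genotypes.

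Of the sterol carriers, Gramd1a (chr7:31130127-31155896 in mm10, minus strand) had the largest unstimulated genotype difference of the 33 genes. It measured 106 and 115 FPKM unstimulated, 33.3 and 34.7 with LPS and 42.7 and 51.7 with anti-IgM in wild-type cells, against 44.9 and 48.3, 25.4 and 28.6, and 31.9 and 28.4 in Trpm5-/- cells. Unstimulated wild-type cells stood far above all other groups, LPS and anti-IgM lowered it by 1.67 ± 0.10 and 1.21 ± 0.10 in wild-type and by 0.77 ± 0.10 and 0.61 ± 0.10 in Trpm5-/- cells, and the interaction of genotype with LPS was 0.90 ± 0.14 (limma, adjusted p = 0.0691), or 1.06 after quantile normalization (limma, adjusted p = 0.0355). Gramd1a lies on chromosome 7, as Trpm5 does, but far from it. Stard4, a soluble sterol carrier known as an SREBP-2 target, measured 13.1 and 15.1 FPKM unstimulated, 26.6 and 28 with LPS and 24.2 and 21.5 with anti-IgM in wild-type cells, against 8.53 and 9.49, 15.9 and 16.6, and 18.6 and 19.5 in Trpm5-/- cells. It rose with both stimuli (0.91 ± 0.10 and 0.66 ± 0.10 in wild-type cells), the one gene of its group that did, and was lower in Trpm5-/- cells (-0.59 ± 0.10 unstimulated and -0.71 ± 0.10 with LPS, limma, adjusted p = 0.00991 and 0.00359; -0.25 ± 0.10 with anti-IgM, not called).

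**Figure D4:**
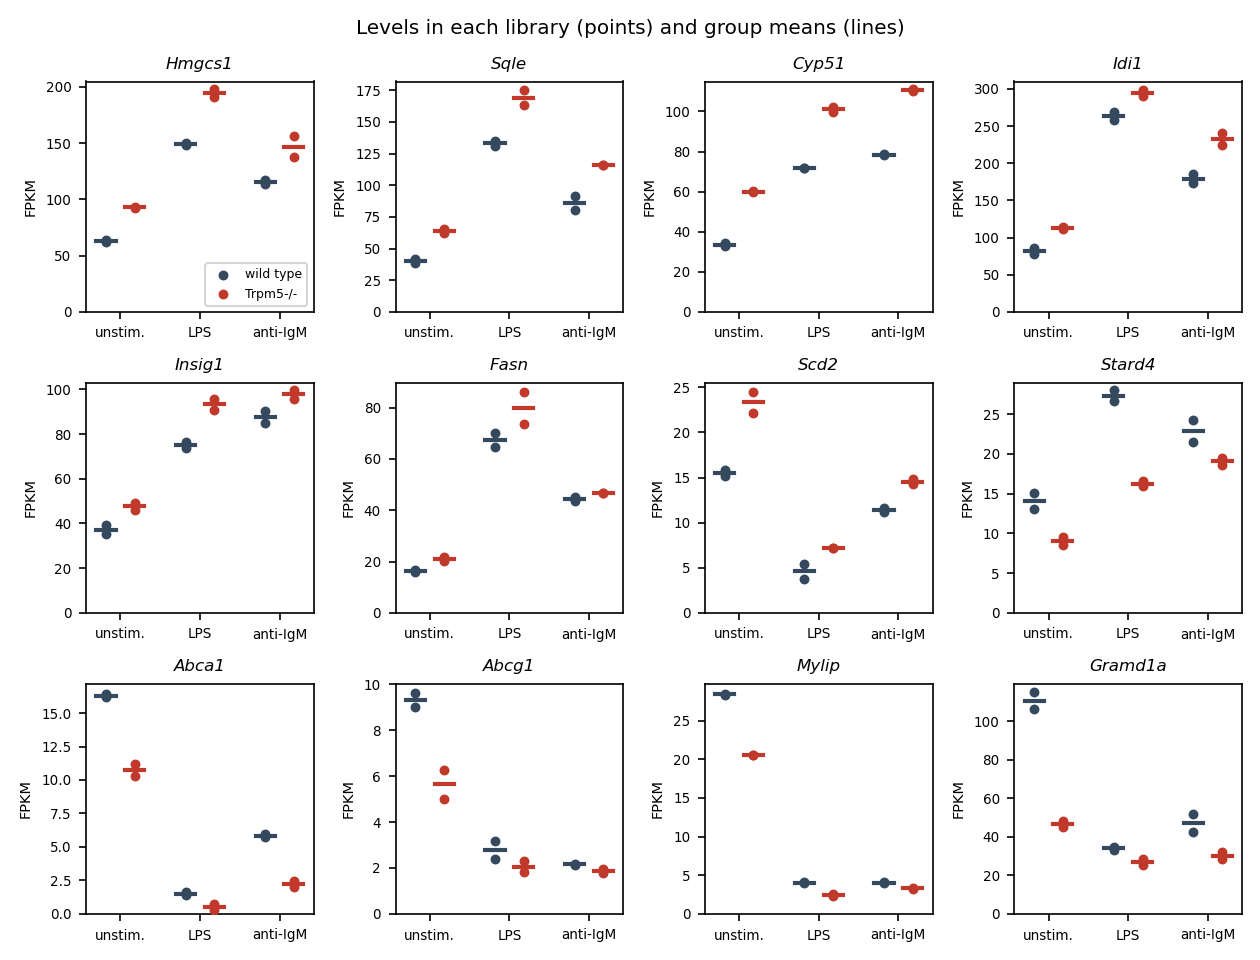
FPKM of 12 of the genes in each library (points, n = 2 a group) with group means (lines), wild type dark and Trpm5-/- red; each panel has its own axis from 0. Cyp51 stands at 32.8 and 34.2 FPKM in wild-type and 59.6 and 60.2 in Trpm5-/- unstimulated libraries, and Gramd1a at 106 and 115 against 44.9 and 48.3.

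Set directly against each other in wild-type cells, LPS and anti-IgM differed for 20 of the 33 genes. With LPS 9 were higher and 11 lower, where 27.7% and 25% of all genes were. So large a share of all genes passed this test too that a call alone says little. In Trpm5-/- cells 10 were higher and 11 lower (28.3% and 23.6%), a total of 21 that fell to 13 without Trpm5-/- LPS replicate 1. After quantile normalization the splits were 7 and 14 in wild-type and 6 and 11 in Trpm5-/- cells, where 47.1% and 48.9% of all genes were called in either direction. Sqle (0.63 ± 0.07), Fasn (0.59 ± 0.08) and Idi1 (0.55 ± 0.06) were higher with LPS than with anti-IgM in wild-type cells. After quantile normalization Sqle stood at 0.35 and Fasn at 0.43, still called, and Idi1 at 0.18, not called (limma, adjusted p = 0.0589). Hmgcs1, Fdps and Msmo1 also lost this call in wild-type cells. Abca1 (-1.45 ± 0.16), Mvk (-1.43 ± 0.19) and Scd2 (-1.16 ± 0.13) were lower. Mylip did not differ between the stimuli in wild-type cells by the test (-0.00 ± 0.11, 95% interval -0.24 to 0.23).

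The interaction tests asked whether the stimulus response differed between genotypes. By limma, 0 of the 33 genes were called for LPS and 0 for anti-IgM, where 0.102% and 0.0278% of all genes tested were. At an unadjusted p under 0.05 there were 9 for LPS (3 positive, 6 negative; 10.3% of all genes) and 8 for anti-IgM (2 positive, 6 negative; 7.94%), and quantile normalization called 1 for LPS, Gramd1a. The sterol enzymes had negative values for 14 of 17 with LPS and 13 of 17 with anti-IgM (medians -0.17 and -0.11, against -0.02 and -0.04 over all genes). These interactions share the unstimulated libraries with the genotype comparison.

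Of 73 further genes of the same pathways, 58 passed the filter. In unstimulated Trpm5-/- cells 6 were called higher and 0 lower, where 4.45% and 1.66% of all genes were. They were 3 of the 11 sterol synthesis genes, 1 of the 10 SREBP control genes and 2 of the 20 fatty acid genes tested, and the 15 LXR and transport genes tested had a median difference of -0.06. Among them were Tmem97, a sterol-binding membrane protein (0.30 ± 0.06), Fntb, a farnesyltransferase subunit at 1.46 to 6.4 FPKM (0.83 ± 0.19), Lpin1, a phosphatidate phosphatase (0.55 ± 0.12), and Aacs, acetoacetyl-CoA synthetase (0.34 ± 0.09), which alone was also called under anti-IgM (0.37 ± 0.09, a call lost after quantile normalization). Under LPS 0 were higher and 2 lower (1.82% and 1.78% of all genes): Gpr183, the oxysterol receptor that guides B cells (-0.74 ± 0.06), and Apoe (-0.30 ± 0.07).

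With LPS, 25 of the 58 were higher and 15 lower in wild-type cells (35% and 34.4% of all genes), and with anti-IgM 22 were higher and 9 lower (27.7% and 20.9%). Among the sterol synthesis genes Tmem97 had the smallest p with both stimuli (2.26 ± 0.06 and 1.40 ± 0.06), and LPS also raised Nus1, a subunit of the dolichol-making prenyltransferase (1.51 ± 0.08). Of the SREBP control genes, LPS raised 5 of 10 and lowered 0, among them the protease Mbtps1 that cleaves SREBP (0.40 ± 0.07). Anti-IgM lowered the sterol-responsive ligase Rnf145 (-0.71 ± 0.07). Of 20 further fatty acid genes tested, LPS raised 9 (45%, against the 35% of all genes) and lowered 3 (15%, against 34.4%), with Hacd3, an enzyme of chain elongation (1.90 ± 0.08), the elongase Elovl1 (1.24 ± 0.08) and the citrate carrier Slc25a1 (0.99 ± 0.08) first by p. After quantile normalization the LPS values of Mbtps1, Elovl1 and Slc25a1 were 0.21, 0.72 and 0.57, all still called. Anti-IgM raised 10 (50%) and lowered 2 (10%), against 27.7% and 20.9% of all genes, first Hsd17b12 (0.77 ± 0.09), Elovl1 (0.68 ± 0.08) and Acsl5 (0.70 ± 0.09).

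The further LXR and transport genes mostly went down with LPS: of 15 tested, 3 rose and 10 fell (20% and 66.7%, against 35% and 34.4% of all genes). Apoe, the lipid carrier and LXR target, measured 800 and 759 FPKM unstimulated, 83.1 and 85.7 with LPS and 710 and 813 with anti-IgM in wild-type cells, against 655 and 677, 69 and 67.6, and 692 and 656 in Trpm5-/- cells. It fell with LPS (-3.19 ± 0.07) and was not called with anti-IgM (-0.04 ± 0.07). Smpdl3a, a phosphodiesterase known as an LXR target, fell with both (-3.11 ± 0.22 and -1.99 ± 0.22), as did the lysosomal lipase Lipa (-1.98 ± 0.10 and -0.55 ± 0.10), and Abca7 fell with anti-IgM (-1.33 ± 0.18). Nr1h3, the gene of LXR alpha, did not pass the filter and did not exceed 0.681 FPKM. Of the oxysterol genes Gpr183 rose with both stimuli (1.16 ± 0.06, or 0.72 after quantile normalization, and 1.34 ± 0.06), Cyp27a1, which hydroxylates cholesterol, fell with both (-2.27 ± 0.31 and -1.59 ± 0.31), and Ch25h did not exceed 0.229 FPKM.

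Some of the 33 genes share sequence with other annotated genes, so their values are uncertain to that extent. Of all 50-base stretches of their exons, 30.4% of those of Acaca, 26.5% of Fdft1, 26.2% of Fdps, 25.3% of Idi1, 11.6% of Hmgcs1, 9.96% of Scap and 9.87% of Tm7sf2 also occur in another gene. Fdft1 overlaps Ctsb over 18.3% of its exon bases and Gramd1a overlaps G630030J09Rik over 8.02%, both on the opposite strand (5.76% of stretches shared for Gramd1a). Whether reads were assigned by strand is not stated in the labels, so within these parts the RNAs of each pair cannot be told apart. Scd1 and Scd2 share 4.56% and 3.97% of their stretches with other genes, mostly with each other and with Scd3 and Scd4.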

How the data were processed

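Total RNA of 12 libraries was turned into full-length cDNA and sequenced, per the labels' protocols. The deposited tables hold 1 FPKM value per gene symbol and library, made by the authors on mm10, per the submitters' processing notes. These notes name Cufflinks 2.2.1, TopHat2 2.0.13, SAMtools 0.1.19 and Bowtie2 2.2.3 without their roles. The unit is not written in the files and was taken from these tools and the values. Without read counts the depth is unknown beyond the relative depth read from the steps of low values.

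From the deposited FPKM, log2(FPKM + 1) was computed for 10797 genes reaching 1 FPKM in 2 or more libraries and fitted with limma 3.58.1 (R 4.3.3): a group-means model over all 12 libraries, 6 residual degrees of freedom, a mean-variance trend, 2-sided tests, adjusted over all 10797 genes, for 12 comparisons. The fit was tested on simulated data. Of the other 20 settings tried, 12 leave out 1 library each. The 33 genes and all lists were chosen with earlier results of these data known. Values in every library are given for each of the 33 genes called in at least 1 comparison and for Srebf1, Srebf2 and Insig1, and, from each wider list, up to 3 called genes of smallest p are named in each comparison described. Gene positions are from GENCODE M21 (mm10) and promoters from RefSeq (GRCm38.p6). Some genes of these lists are not reported here by name.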

Additional observations from a re-analysis of the deposited data

Results flagged for a closer look

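Gpr183, the oxysterol receptor that guides B cells, differed between genotypes in its response to LPS. It stood at 61.6 and 64.9 FPKM in wild-type and 56.5 and 56.3 in Trpm5-/- unstimulated libraries, and at 137 and 148 against 84.3 and 85.3 with LPS. The interaction of genotype with LPS was -0.58 ± 0.08 on the log2(FPKM + 1) scale (limma, adjusted p = 0.04). Of the 20 alternatives 17 lost this call, with values from -0.64 to -0.51.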

How the results depend on the processing

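The number of the 33 genes called between genotypes moved most. Unstimulated, the 19 calls became 3 when only the libraries compared were fitted and 12 without the mean-variance trend. The share of all genes called went from 6.11% to 0.472% and 3.34% in these fits. Under LPS, the 8 calls became 5 with no filter on low values, with quantile normalization and without the trend, and 0 with only the libraries compared. All genes went from 3.59% called to 2.08%, 2.82%, 2.54% and 0.194% in that order. Under anti-IgM, the 8 became 1 with only the libraries compared and 5 without the trend, where all genes went from 3.83% to 1.07% and 2.3%. Quantile normalization gave 1 call for the interaction of genotype with LPS, where there were 0. The cause was not tested, except that fits of only the libraries compared keep 2 residual degrees of freedom; such a fit was not run for the mean of the 3 conditions. Leaving out 1 library at a time gave 6 to 18 calls unstimulated, 3 to 7 under LPS, 3 to 8 under anti-IgM, 18 to 21 for the mean, 28 to 30 and 29 for LPS in wild-type and Trpm5-/- cells, 22 to 24 and 20 to 22 for anti-IgM, 17 to 21 and 13 to 22 for LPS against anti-IgM, and 0 for either interaction.

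Quantile normalization turned the sign of the LPS response of Srebf2 to -0.04 in wild-type and -0.04 in Trpm5-/- cells and LPS against anti-IgM for Msmo1 in wild-type cells to -0.09. Same-numbered libraries did not deviate together (3 of 15 group pairs had r above 0.1, from -0.172 to 0.199). With the replicate block there were 17 calls unstimulated, 6 under LPS, 8 under anti-IgM, 21 for the mean, 29 and 29 for LPS, 24 and 23 for anti-IgM, 21 and 21 for LPS against anti-IgM, and 0 and 0 for the interactions. No scaling moved the median of all genes by over 0.1. The number of libraries and unknown read depth limit the precision of low genes such as Abca1 under LPS.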
